A study of Mus musculus with 6 samples.

Results

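The Rab GTPases and the SNARE secretion machinery, with their nearest regulators, were examined in cGAS-/- neutrophils as 76 genes, out of the 23049 genes with any value above 0. The members were chosen by symbol: those beginning with Rab, Stx, Stxbp, Vamp or Snap followed directly by a number, and *Unc13d*, leaving out 5 pseudogenes and opposite-strand genes. The rule itself used no measured value other than the presence of a value above 0, whichever group it came from. It was set, however, with earlier results of these data known. The members just inside that limit were *Rab36*, with values of 0.00744 and 0.0121 in 2 LPS samples, and *Rab25*, with 0.0471 in 1 LPS sample, whereas *Rab17*, *Rab38*, *Snap25* and *Vamp9* were listed at 0 in all samples and left out. By family, the members were 41 Rab GTPases, 7 Rab regulators or effectors, 12 syntaxins, 6 VAMPs, 3 genes with a Snap symbol and 7 genes of the SM (Sec1/Munc18), tomosyn and priming group. *Snap91*, which carries a Snap symbol, encodes a clathrin adaptor and not a SNARE.

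Rab GTPases are small switches that cycle between a GTP-bound form, which holds effectors on the surface of a vesicle, and a GDP-bound form, and each organelle carries its own set of them. SNARE proteins on the vesicle (VAMPs) pair with SNAREs on the target membrane (syntaxins and SNAPs) and pull both membranes together, while SM proteins and priming factors such as Munc13-4 (*Unc13d*) control the pairing. In neutrophils this machinery moves preformed granules to the plasma membrane or to the phagosome, and inherited defects of *RAB27A*, *UNC13D*, *STX11* and *STXBP2* impair secretion by cytotoxic lymphocytes in humans.

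RNA sequencing values came from 6 samples of peritoneal neutrophils of mice with strain label C57B/L6, 3 kept in media control (untreated) and 3 activated with lipopolysaccharide (LPS, a cell wall component of Gram-negative bacteria), all held for 2 h. All 6 samples were of the cGAS knockout genotype, so that the comparison is one of LPS within the knockout, and wild-type cells were not analysed here. Per the labels LPS was given at 500 ng/mL, but the methods of the study give a lower dose for the same experiment. Cells had been elicited with thioglycolate, and nothing in the labels says that samples of a group came from separate animals, so the p values measure only the spread between these samples.

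The values are given in scaled TPM (a length-normalised share of transcripts, taken as the mean of each gene's annotated transcripts, rescaled by a sample-wide factor), and those of the replicates are listed in the order 1, 2 and 3. The number of reads behind them is unknown. *Cgas*, the targeted gene, had between 0.0286 and 0.307 in all 6 samples. Neutrophil markers summed to between 9696 and 28382 untreated and between 16056 and 54565 after LPS, with 13 of the 14 markers in the table above 0 (*Elane* was at 0). *S100a8* and *S100a9* made up most of these sums, which were highest in replicate 2 of both groups. Wholly lower after LPS were *Cxcr2* (39.4, 120 and 100 against 7.10, 23.6 and 8.69) and *Csf3r* (251, 345 and 525 against 138, 233 and 188). So were *Il1r2* and *Ltf*, by narrow gaps. The other neutrophil markers above 0, *S100a8* and *S100a9* included, overlapped. Markers of macrophages or monocytes, 10 of 10 in the table above 0, summed to 181 to 283 against 319 to 442. Most of that sum was *Cd68* (179, 157 and 162 against 303, 381 and 230). *C1qb* was also higher after LPS (2.85, 0.712 and 4.75 against 23.9, 17.3 and 18.0), while *Apoe* (65.0, 14.8 and 86.4 against 72.6, 26.0 and 51.6) overlapped. Lower after LPS were *Mrc1* (2.50, 1.17 and 2.11 against 1.01, 0.611 and 0.978) and *Cx3cr1* (0.479, 1.41 and 1.05 against 0.472, 0.165 and 0.268). Those of B cells, 7 of 7 above 0, summed to 143 to 553 against 67.9 to 240. Protein-coding genes held 21.6%, 29.0% and 24.1% of the summed values untreated and 50.6%, 59.99% and 51.2% after LPS. The median log2 difference of the 6004 coding genes with a mean of at least 1 was 0.37, and 0.02 after each sample was scaled to its protein-coding sum. Differences scaled to that sum (the protein-coding scale) are given for the members with the clearest separation. In bulk samples, fewer cells of a type and less RNA per cell cannot be told apart.

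LPS moved few of the 76 members past the limits used in the study. These limits were a log2 fold change past 2 together with an unadjusted p under 0.01 (limma). Called higher were 2 members, *Rab11fip1* and *Stx12*, beside 1.69% of all genes tested and 4.91% of coding genes with a mean of at least 1. Called lower were 0, beside 1.31% and 0.75%. At an unadjusted p under 0.05 with no fold limit, 14 members were higher (10.3% of all genes) and 6 were lower (6.66% of all genes). With a log2 fold change past 1 in addition, 11 were higher (6.65% of all genes) and 3 lower (4.62%). With adjustment over all genes, *Rab11fip1* alone had an adjusted p under 0.05 (limma, Benjamini-Hochberg), a limit that 0.894% of all genes passed as higher and 0.946% as lower. The samples of both groups did not overlap in 31 members. In 22 members every LPS sample lay above every untreated sample (28.9% of members, against 13.1% of all genes and 24.5% of coding genes with a mean of at least 1), and in 9 every LPS sample lay below (11.8%, against 9.75% and 10.1%). After scaling to the protein-coding sum these counts were 12 higher and 11 lower, or 15.8% and 14.5% of members beside 8.67% and 13.8% of all genes. Among members with a mean of at least 1 they were 10 and 8 of 52 (19.2% and 15.4%), beside 14.3% and 15.7% of coding genes at that level. Before that scaling, the same 52 members had 18 higher and 7 lower (34.6% and 13.5%), beside 24.5% and 10.1% of those coding genes.

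The median log2 difference over all 76 members was 0.16, and -0.03 on the protein-coding scale, beside 0.01 and -0.04 over all genes tested. Members together summed to 1181, 1675 and 1271 scaled TPM without LPS and 2105, 2710 and 2168 with it. As a share of the protein-coding sum they held 0.766%, 0.877% and 0.873% against 1.02%, 0.970% and 1.05%, so that the groups did not overlap on either scale. Such sums follow the highest members. The 6 members with a mean of at least 100, named below, made up most of each LPS sum. The sum therefore does not describe a typical member, the median difference being -0.03 on the protein-coding scale. The members differed widely in level. A mean of at least 1 was reached by 52, of at least 10 by 26, and of at least 100 by *Rab8b*, *Rab7*, *Rab20*, *Rab10*, *Stx11* and *Rab32*, although such a level also depends on how many transcripts are annotated for a gene.

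**Figure D1:**
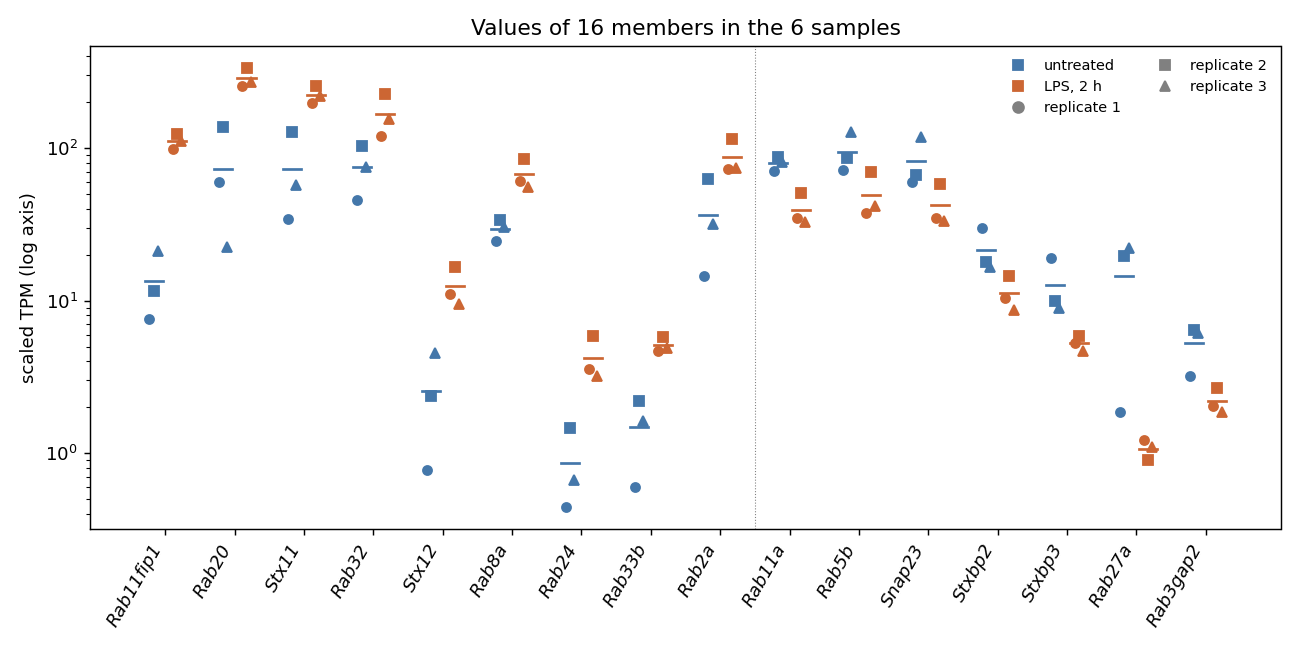
Scaled TPM of 16 members whose groups stayed apart on both scales, in each of the 6 samples (log axis, 1 point per sample, untreated in blue and LPS in orange, replicates by marker shape, short lines at the group means, members higher after LPS to the left of the dotted line). *Rab11fip1* showed the widest gap between groups on this axis, with 7.61 to 21.0 untreated and 98.3 to 123 after LPS, while *Rab27a* lay between 0.899 and 1.21 after LPS.

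*Rab11fip1* (chr8:27628801-27664682, minus strand) encodes Rab-coupling protein, an effector of Rab11 on recycling endosomes. Its values were 7.61, 11.6 and 21.0 untreated and 98.3, 123 and 111 after LPS. The lowest LPS sample was several times the highest untreated one. The means of 13.4 ± 6.88 and 111 ± 12.4 (SD, n = 3 each) lay 8.25-fold apart, and *Rab11fip1* rose by 3.06 on the log2 scale (SE 0.41, adjusted p = 0.0308, limma). Scaled to the protein-coding sum the difference was 2.58 (adjusted p = 0.0488), and over the alternative settings the adjusted p ranged from 0.0119 to 0.124. An antisense long noncoding gene, *4933416M07Rik* (chr8:27632938-27639742, plus strand), lies within *Rab11fip1* and shares transcript sequence with it. It stood at 0, 20.1 and 0.773 untreated and 156, 114 and 69.4 after LPS. The libraries were strand-specific, but the strand setting of the quantification is not given in the sources used here, so a split of reads between the 2 genes is uncertain. Summed over both genes, the values were 7.61, 31.8 and 21.8 against 254, 237 and 180, again with no overlap.

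*Rab11a* (chr9:64581321-64645054, minus strand), the GTPase that Rab-coupling protein binds, had 71.3, 87.2 and 80.7 untreated and 35.0, 50.5 and 32.9 after LPS. Each LPS sample was below each untreated sample, opposite to its effector. Its means of 79.7 ± 7.99 and 39.5 ± 9.58 (SD, n = 3 each) lay 2.02-fold apart, with a log2 difference of -1.02 (SE 0.29) that did not pass (adjusted p = 0.149, limma) and was -1.50 on the protein-coding scale, where its adjusted p was 0.0488. Over the alternative settings that p ranged from 0.0488 to 0.319. The ratio of *Rab11fip1* to *Rab11a* within a sample, which the sample scaling cannot alter, was 0.107, 0.133 and 0.260 untreated and 2.81, 2.44 and 3.36 after LPS. The ratio was thus higher in every LPS sample than in every untreated sample. Which gene has the higher value within a sample also depends on how many transcripts are annotated for each. GENCODE M39 lists 8 for *Rab11fip1* and 24 for *Rab11a*.

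The start-site regions of *Rab11fip1*, of its partner *Rab11a* and of *Stx11* are shown because the first was called, the second lay on the other side, and the third is a highly expressed member with the consensus site of NF-kB, the transcription factor that acts downstream of the LPS receptor. Each runs 5′ to 3′ on the gene's own strand from 250 bases before to 50 bases after the annotated start site (GENCODE M39 on GRCm39). Rab11fip1 lies at chr8:27664633-27664932, Rab11a at chr9:64644999-64645298 and Stx11 at chr10:12840210-12840509, all on the minus strand. Capitals mark the E-box CACGTG in Rab11fip1 and the NF-kB consensus in Stx11, and none of the motifs searched was found in the Rab11a window.
Rab11fip1: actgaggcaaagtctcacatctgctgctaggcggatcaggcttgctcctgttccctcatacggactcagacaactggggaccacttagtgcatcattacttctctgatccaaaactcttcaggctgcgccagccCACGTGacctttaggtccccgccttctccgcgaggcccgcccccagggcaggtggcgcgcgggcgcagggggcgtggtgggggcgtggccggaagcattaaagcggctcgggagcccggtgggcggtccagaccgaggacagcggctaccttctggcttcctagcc
Rab11a: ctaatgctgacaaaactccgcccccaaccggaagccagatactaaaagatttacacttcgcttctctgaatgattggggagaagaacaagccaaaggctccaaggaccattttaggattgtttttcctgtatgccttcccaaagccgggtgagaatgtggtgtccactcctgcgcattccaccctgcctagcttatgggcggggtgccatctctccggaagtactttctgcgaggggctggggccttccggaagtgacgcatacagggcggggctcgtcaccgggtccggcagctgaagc
Stx11: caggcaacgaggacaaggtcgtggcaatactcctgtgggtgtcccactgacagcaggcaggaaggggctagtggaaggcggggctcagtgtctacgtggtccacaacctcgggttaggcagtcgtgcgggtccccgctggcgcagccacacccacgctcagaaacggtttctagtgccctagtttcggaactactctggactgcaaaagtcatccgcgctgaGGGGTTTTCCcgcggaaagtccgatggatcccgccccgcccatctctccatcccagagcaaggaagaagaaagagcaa

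The E-box of *Rab11fip1* begins 116 bases before the start site, and the NF-kB match of *Stx11* begins 28 bases before it. On both strands of such windows the E-box occurred in 9 of 76 members (11.8%, beside 8.43% of 14302 protein-coding promoters), and the NF-kB consensus in 4 (5.26%, beside 5.15%), among them *Stx11*, *Rab28* and *Vamp4*. The AP-1 motif TGACTCA was present in 2 members (*Rab34* and *Rab3gap2*, 2.63% beside 4.68%) and the CRE motif TGACGTCA in 3 (*Rab25*, *Stxbp3* and *Vamp3*, 3.95% beside 2.62%). The lysosomal CLEAR motif, which is the E-box with GT before it and AC after it, was found in *Rab21* and *Rab24* (2.63% beside 0.301%). These are matches of letters and not binding sites. Neither called member held the NF-kB or AP-1 letters in its window.

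The counts by role that follow can be read against the share of coding genes with a mean of at least 1 whose groups lay apart, which was 24.5% upward and 10.1% downward. Among the Rabs of early and recycling endosomes (11 members), 2 lay wholly above and 2 wholly below their untreated values, and 0 were called. *Rab5b* and *Rab5c* encode isoforms of the GTPase that drives early endosome fusion. *Rab5b* had 71.6, 86.4 and 127 untreated and 37.4, 69.4 and 42.1 after LPS (log2 difference -0.93, SE 0.38, adjusted p = 0.289, limma). *Rab5c* had 28.2, 23.2 and 21.5 untreated and 39.4, 49.1 and 39.8 after LPS (0.79, SE 0.27, adjusted p = 0.216). The isoforms thus lay in opposite directions without overlap, although for *Rab5c* the groups overlapped on the protein-coding scale, where the differences were -1.42 and 0.31. Their ratio, *Rab5c* to *Rab5b*, was 0.394, 0.268 and 0.170 untreated and 1.05, 0.708 and 0.945 after LPS.

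In the group of late endosomes, lysosomes and phagosomes (8 members), 4 lay wholly above and 0 wholly below, with a median log2 difference of 0.71 (0.40 on the protein-coding scale). *Rab20*, a Rab of phagosomes and endosomes that is known to respond to inflammatory stimuli in macrophages, had 59.6, 138 and 22.5 untreated and 257, 336 and 270 after LPS. All LPS samples exceeded the untreated ones, whose own values spread widely. The log2 difference was 2.30 (SE 0.65, adjusted p = 0.143, limma), or 1.81 on the protein-coding scale. *Rab20* relative to *Rab5b* was 0.833, 1.59 and 0.177 untreated and 6.86, 4.84 and 6.43 after LPS. *Rab20* lies at chr8:11503392-11528710 and overlaps the antisense *E230013L22Rik*, which had 4.45, 1.88 and 10.2 against between 11.5 and 12.4.

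*Rab32*, which serves lysosome-related organelles and pathogen vacuoles, had 46.0, 104 and 74.9 untreated and 119, 226 and 154 after LPS, without overlap on either scale (log2 difference 1.17, or 0.68 on the protein-coding scale, SE 0.42, adjusted p = 0.234, limma). For *Rab7*, the main GTPase of late endosomes, the values were 234, 75.6 and 143 against 308, 323 and 237. The gap between its groups was narrow and closed on the protein-coding scale. *Rab24*, known from autophagy, had 0.447, 1.46 and 0.671 untreated and 3.58, 5.85 and 3.23 after LPS, a 4.91-fold difference of means (log2 difference 1.49, or 1.21 on the protein-coding scale, SE 0.37, adjusted p = 0.108, limma). It overlaps the more abundant *Prelid1* on the other strand (36.9, 18.0 and 82.0 against 61.5, 88.8 and 51.9), whose groups overlapped. Both genes share a stretch of 443 bases, so a split of reads between them is uncertain. Their sum, mostly *Prelid1*, was 37.4, 19.4 and 82.6 against 65.1, 94.7 and 55.2, with overlap. *Rab7b* had the lowest log2 difference among those of this group with a mean of at least 1 (-0.48, SE 0.92), with 13.1, 8.45 and 0.393 against 3.39, 5.05 and 1.59.

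The Rabs of exocytosis and granules (9 members) held 3 wholly above, 2 wholly below and 0 called. *Rab27a* (chr9:72952124-73004911, plus strand), which acts in the release of azurophilic granules, had 1.88, 19.5 and 22.2 untreated and 1.21, 0.899 and 1.10 after LPS. The LPS samples were tightly grouped below all untreated samples, of which replicate 1 was close to them. Its means of 14.6 ± 11.1 and 1.07 ± 0.159 (SD, n = 3 each) lay 13.6-fold apart, with a log2 difference of -2.43 (SE 0.84, adjusted p = 0.214, limma) that did not pass. Without untreated replicate 1, *Rab27a* was called lower (log2 difference -3.40, adjusted p = 0.0348), and over the alternative settings the adjusted p ranged from 0.0348 to 0.487.

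Other granule Rabs were scarce: *Rab37* had 0.529, 0.228 and 0.487 against 0.705, 0.794 and 1.14, and *Rab3d* had 0.134, 2.57 and 0.0493 against 0.191, 0.161 and 0.345. The exocytic Rabs *Rab8a*, *Rab8b* and *Rab10*, which direct vesicles to the plasma membrane, were abundant. *Rab8a* had 24.7, 34.0 and 30.2 untreated and 61.2, 84.6 and 55.8 after LPS, with a 2.27-fold difference of means and no overlap on either scale (log2 difference 1.14, or 0.66 on the protein-coding scale, SE 0.30, adjusted p = 0.124, limma). *Rab8b* had 50.8, 325 and 50.7 against 315, 281 and 395, so that untreated replicate 2 lay among the LPS samples. Without that replicate *Rab8b* was called higher (2.66, adjusted p = 0.0315), but 279 bases of it are near-identical to the processed pseudogene *Gm20689*, which had 0, 0 and 82.2 against 298, 116 and 166. A split of reads between the pair is uncertain. Their sum was 50.8, 325 and 133 untreated and 613, 397 and 561 after LPS, without overlap. *Rab10* had 134, 36.2 and 174 against 184, 240 and 175, without overlap by a narrow gap that closed on the protein-coding scale.

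For the ER and Golgi Rabs (9 members, 2 wholly above and 0 wholly below) the median log2 difference changed sign with the scale, from 0.25 to -0.21. *Rab2a*, which acts between ER and Golgi and on lysosomes, had 14.6, 62.3 and 31.7 untreated and 72.5, 114 and 73.8 after LPS (log2 difference 1.43, SE 0.56, adjusted p = 0.269, limma). *Rab33b*, a Golgi Rab with a role in autophagy, had 0.599, 2.20 and 1.64 against 4.67, 5.75 and 4.88 (1.35, SE 0.37, adjusted p = 0.128). Both kept their groups apart on the protein-coding scale, with differences of 0.95 and 1.02. *Rab1a* had 4.07, 72.2 and 9.72 against 37.6, 44.8 and 25.1, again with untreated replicate 2 outside the range of its group. *Rab6b* had the lowest difference among those with a mean of at least 1 (-0.85, adjusted p = 0.391), with 2.05, 0.438 and 2.92 against 0.451, 0.314 and 0.527. In the group of regulators and effectors (7 members), *Rab3gap2*, a subunit of the Rab3 GTPase-activating and Rab18-activating complex, had 3.23, 6.39 and 6.16 against 2.05, 2.69 and 1.87 (-0.93, adjusted p = 0.251). It shares a stretch of 2154 bases with the overlapping *Iars2* on the other strand (2.63, 1.10 and 0.199 against 1.71, 0.915 and 1.58), so a split of reads between them is uncertain. *Rab5if*, an interactor of Rab5, had 22.8, 21.9 and 6.46 against 22.2, 46.4 and 21.0, with overlapping groups. The 4 Rabs outside these classes had means under 1, the highest being *Rab28* and *Rab23*, both tied to cilia. *Rab28* had 0.299, 0.311 and 0.838 against 1.32, 1.81 and 1.24, without overlap, and *Rab23* had 0.758, 0 and 0.161 against 0.449, 0.266 and 0.288, with overlap.

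**Figure D2:**
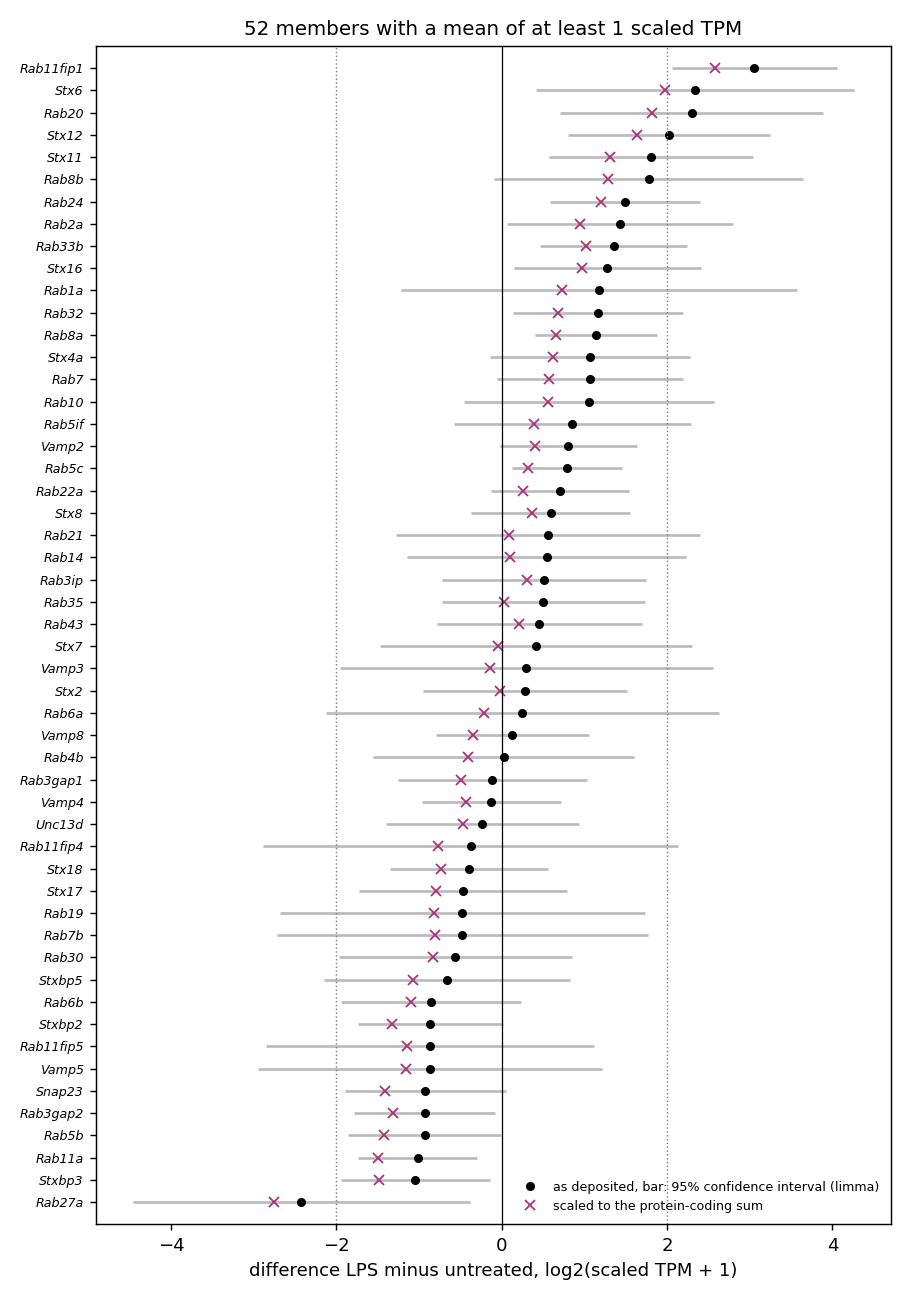
Difference in log2(scaled TPM + 1), LPS minus untreated, for the 52 members with a mean of at least 1, as black points with 95% intervals from limma, crosses for the protein-coding scale and dotted lines at the fold limit of 2. Past that limit lie the called *Rab11fip1* (3.06) and *Stx12* (2.02) and the uncalled *Stx6* (2.34), *Rab20* (2.30) and *Rab27a* (-2.43), whose interval runs from -4.47 to -0.39.

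The syntaxins of endosomes, ER and Golgi (7 members) held 4 wholly above and 0 wholly below, with a median log2 difference of 0.59 (0.37 on the protein-coding scale). *Stx12* (chr4:132579374-132611831, minus strand), also known as syntaxin 13, is a SNARE of recycling endosomes, the compartment of Rab11. Its values were 0.779, 2.37 and 4.57 untreated and 11.1, 16.8 and 9.47 after LPS. The groups did not overlap on either scale and the means of 2.57 ± 1.90 and 12.4 ± 3.83 (SD, n = 3 each) lay 4.83-fold apart. *Stx12* rose by 2.02 on the log2 scale (SE 0.50), just past the fold limit, but its adjusted p was 0.107 (limma) and the call was lost in 12 of 17 other fits, that on the protein-coding scale included (1.64). It was lost on leaving out any sample other than untreated replicate 3.

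*Stx6*, of the trans-Golgi network, had 0.559, 12.1 and 1.84 untreated and 17.3, 16.4 and 22.5 after LPS. Untreated replicate 2 again lay nearer the LPS samples than its own group (log2 difference 2.34, SE 0.79, adjusted p = 0.207, limma), and without it *Stx6* was called higher (3.22, adjusted p = 0.0398). On the protein-coding scale its difference was 1.98 and the groups overlapped. *Stx16*, its partner in transport to the Golgi, had 0.214, 0.847 and 2.46 against 4.75, 3.87 and 2.94, a narrow gap (1.28, adjusted p = 0.235) that closed on the protein-coding scale (0.98). *Stx7*, of late endosomes, had 15.8, 2.72 and 16.5 against 8.83, 27.2 and 8.33, and its groups overlapped. *Stx17*, of autophagosomes, had 1.99, 1.48 and 6.61 against 1.73, 1.16 and 2.62.

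Among the plasma membrane syntaxins (5 members, 3 wholly above and 1 wholly below), *Stx11* (chr10:12813953-12840259, minus strand) was the most abundant. It had 34.5, 127 and 57.6 untreated and 197, 255 and 221 after LPS, with no overlap on either scale. Its means of 73.0 ± 48.1 and 224 ± 29.2 (SD, n = 3 each) lay 3.07-fold apart, with a log2 difference of 1.80 (SE 0.51) that did not pass (adjusted p = 0.140, limma) and was 1.32 on the protein-coding scale. *Stx4a*, the general syntaxin of the plasma membrane, had 10.2, 19.0 and 4.76 against 23.9, 22.1 and 19.7 (1.07, adjusted p = 0.335), and its groups overlapped on the protein-coding scale (0.62).

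*Stxbp2* (Munc18-2), the SM protein of syntaxin 11, had 30.0, 17.9 and 16.6 untreated and 10.4, 14.4 and 8.74 after LPS (log2 difference -0.86, SE 0.36, adjusted p = 0.306, limma). *Snap23*, the SNAP of non-neuronal cells and the only one of the 3 Snap genes with a mean of at least 1, had 60.3, 67.1 and 119 against 35.1, 58.1 and 33.4 (-0.92, SE 0.40, adjusted p = 0.317). *Stxbp3* (Munc18c), the SM protein of syntaxin 4, had 19.0, 9.90 and 8.91 against 5.25, 5.91 and 4.68 (-1.05, SE 0.37, adjusted p = 0.223). None of these 3 passed the test, and in each the LPS samples lay below the untreated samples on both scales, with differences on the protein-coding scale of -1.33 for *Stxbp2*, -1.41 for *Snap23* and -1.48 for *Stxbp3*. Within a sample, *Stx11* relative to *Stxbp2* was 1.15, 7.09 and 3.46 untreated and 18.9, 17.7 and 25.3 after LPS, and relative to *Snap23* 0.572, 1.89 and 0.486 against 5.62, 4.40 and 6.62. *Unc13d*, the priming factor that binds Rab27a, was low, with 0.294, 2.95 and 1.23 against 0.750, 1.32 and 0.720, and its groups overlapped (-0.23, SE 0.48, adjusted p = 0.802). *Rab27a* relative to *Unc13d* was 6.39, 6.62 and 18.1 untreated and 1.62, 0.680 and 1.53 after LPS. *Snap47*, a SNAP of intracellular membranes, lay between 0.151 and 0.656 in all samples.

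**Figure D3:**
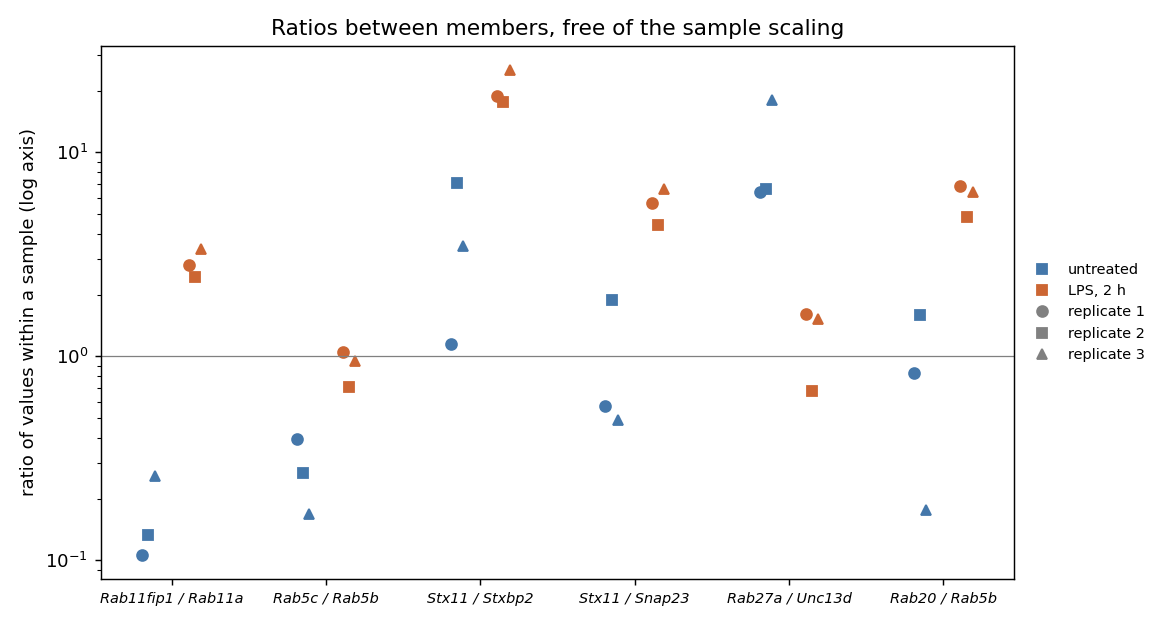
Ratio of scaled TPM of 2 members within the same sample (log axis, 1 point per sample, untreated in blue and LPS in orange). The 6 pairs were chosen after their values were seen. In 5 the LPS samples lie above the untreated samples, for *Rab11fip1* over *Rab11a* at 2.44 to 3.36 against 0.107 to 0.260, and for *Rab27a* over *Unc13d* they lie below, at 0.680 to 1.62 against 6.39 to 18.1.

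VAMPs showed no common direction (6 members, 1 wholly above and 0 wholly below, median log2 difference 0.06 and -0.29 on the protein-coding scale). *Vamp8*, an endosomal and granule VAMP and the one with the highest mean, had 30.1, 35.1 and 18.6 untreated and 24.1, 41.4 and 25.9 after LPS (0.13, SE 0.38, 95% interval -0.80 to 1.05). Its groups overlapped. *Vamp2*, a VAMP of regulated secretion, had 4.40, 5.80 and 2.63 against 7.61, 8.70 and 7.57, without overlap on either scale (0.81, or 0.40 on the protein-coding scale, SE 0.34, adjusted p = 0.307, limma). *Vamp3*, of recycling endosomes, had 8.37, 54.0 and 3.53 against 13.2, 22.2 and 12.2, and *Vamp5* had 13.6, 1.10 and 0.868 against 0.715, 0.790 and 2.06. In both, 1 untreated sample stood far above the other 2.

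**Figure D4:**
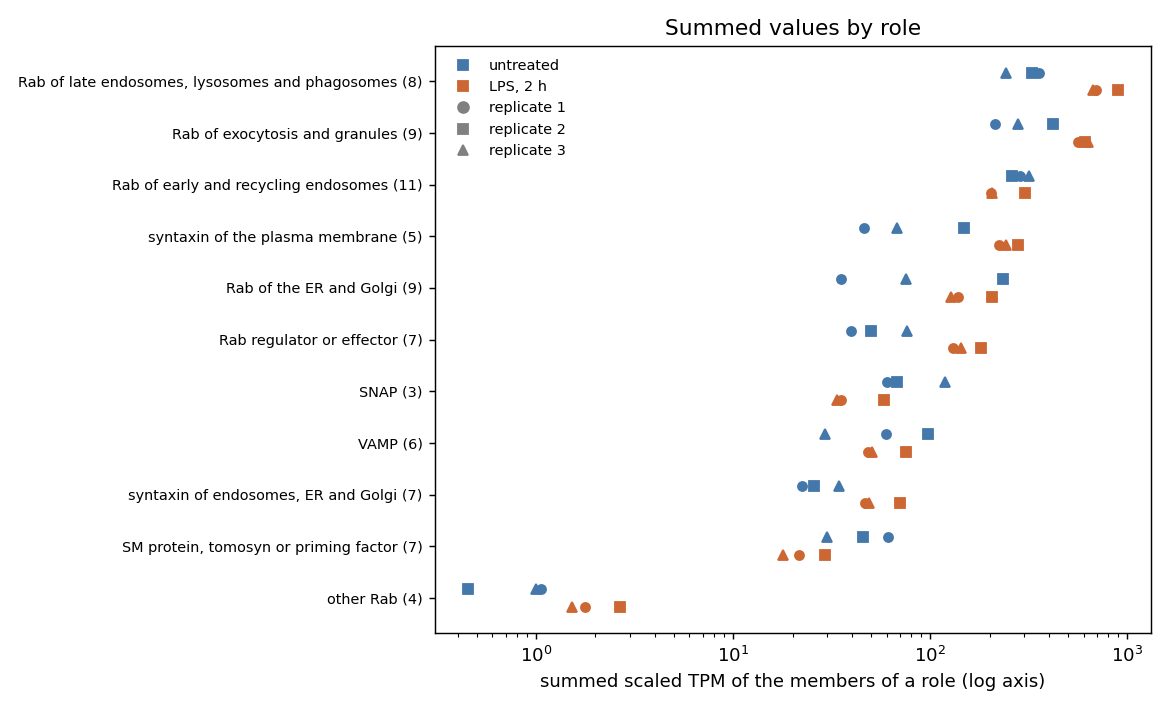
Summed scaled TPM of the members in each role group, 1 point per sample (log axis, untreated in blue and LPS in orange, number of members in brackets). The Rabs of exocytosis and granules summed to 213 to 418 untreated and 563 to 629 after LPS, and the SNAP group, nearly all *Snap23*, to 60.5 to 119 against 33.7 to 58.4.

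Summed by role, the groups separated upward for the late endosome and phagosome Rabs (355, 328 and 242 untreated against 692, 897 and 668 after LPS). The endosomal, ER and Golgi syntaxins also separated, with 22.2, 25.6 and 34.4 against 46.5, 70.1 and 48.8, and those of the plasma membrane with 46.2, 148 and 67.8 against 223, 280 and 242, which was mostly *Stx11*. The SM and priming group separated narrowly downward, with 61.1, 45.5 and 29.8 against 21.6, 29.1 and 18.0. The regulators and effectors, mostly *Rab11fip1* after LPS, summed to 39.4, 49.9 and 76.6 against 131, 182 and 143. For early and recycling Rabs the sums overlapped, at 287, 259 and 316 against 204, 302 and 205, with *Rab11a* and *Rab5b* lower and *Rab5c* higher after LPS. As a share of the protein-coding sum, the late endosome and phagosome Rabs and the plasma membrane syntaxins still lay apart upward, as did the regulators and effectors, and the SM and priming group and the SNAP group lay apart downward. On that scale the endosomal, ER and Golgi syntaxins and the Rabs of exocytosis and granules overlapped, and the early and recycling Rabs lay apart downward.

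Untreated samples varied more among themselves than LPS samples did. For the 52 members with a mean of at least 1, the median SD of the log2 values was 0.863 in untreated and 0.311 in LPS samples, and the untreated SD was the larger in 49 members (94.2%), beside 82.8% of coding genes at that level. Untreated replicate 2 was the highest of its group in 23 of the 52 members and LPS replicate 2 in 40, beside 33.1% and 42.2% of coding genes. Replicate 2 was the highest of its group in 9 of 13 neutrophil markers untreated and 10 of 13 after LPS, with *S100a9* at 5233, 16151 and 6297 untreated and 10651, 28393 and 8899 after LPS. Among the exceptions, untreated *Camp* was highest in replicate 1 (24.1, 1.16 and 9.18) and untreated *Csf3r* in replicate 3 (251, 345 and 525). The part of this in the members' values was not tested. Leaving out untreated replicate 2 raised the number of members called higher from 2 to 6, which were then *Rab11fip1*, *Rab20*, *Rab1a*, *Rab8b*, *Stx6* and *Stx11*.

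Other genes of the pathway were taken from a list of 185 activators, inactivators, effectors, tethers and further SNAREs, of which 125 had a value above 0. Of these, 3 were called higher (2.4%, beside 1.69% of all genes) and 0 lower (beside 1.31%). All 3 were among the 83 with a mean of at least 1 (3.61%, beside 4.91% of coding genes at that level). At an unadjusted p under 0.05 (limma), 18 of the 125 were higher (14.4%, beside 10.3% of all genes). By the same limit 10 were lower (8.0%, beside 6.66%). Groups lay apart upward in 23 (18.4%, beside 13.1% of all genes and 24.5% of coding genes with a mean of at least 1) and downward in 17 (13.6%, beside 9.75% and 10.1%). The values of 2 of the called genes, both of which act on Rab GTPases, follow. *Dennd5a*, an exchange factor of Rab39, had 1.20, 1.93 and 0.913 untreated and 24.5, 18.0 and 24.0 after LPS (log2 difference 3.31, SE 0.32, adjusted p = 0.0141). *Tbc1d10a* (EPI64), a GTPase-activating protein known to act on Rab27a and Rab35, had 0.495, 0.548 and 0.141 against 5.11, 5.54 and 6.75 (2.29, SE 0.30, adjusted p = 0.0299). In both, the lowest LPS sample was several times the highest untreated one, although the untreated values were low and those of *Tbc1d10a* all under 1.

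By list, the 23 activators tested had a median log2 difference of 0.47 (8 wholly above, 4 wholly below), the 24 inactivators -0.03 (1 and 4) and the 26 effectors -0.03 (2 and 2). The 9 further SNAREs had 0.75 (5 and 1), the 22 SM proteins and tethers 0.03 (5 and 5), the 5 genes of prenylation and GDI 0.76 (2 and 0), the 7 of SNARE recycling 0.45 (0 and 0) and the 9 synaptotagmins and calcium sensors -0.01 (0 and 1). On the protein-coding scale these medians, in the same order of lists, were 0.33, -0.13 and -0.14, then 0.43, -0.07, 0.35, 0.16 and -0.01. On the lower side, the difference without that scaling was -1.78 for *Mon1a*, a subunit of the Rab7 activator (adjusted p = 0.0991, limma), -1.59 for *Tbc1d2*, a GTPase-activating protein of Rab7 (adjusted p = 0.128), -1.34 for the exocyst subunit *Exoc3* (adjusted p = 0.0741) and -1.55 for *Sec22c* (adjusted p = 0.0642). Of these, 0 passed the limits, and *Mon1a* and *Tbc1d2* passed them on the protein-coding scale (-2.17 and -2.05, adjusted p = 0.0991 and 0.0419). There *Exoc3* and *Sec22c* stayed within the fold limit (-1.74 and -1.92) with adjusted p values of 0.0488 and 0.0481. The highest differences of the remaining lists were 1.79 for *Rabif*, a chaperone of nucleotide-free Rabs, 1.66 for the Golgi SNARE *Gosr2*, 1.38 for the vesicle tether *Uso1*, 1.02 for *Vps33b*, an SM protein of endosomes, and 0.84 for *Napa* (alpha-SNAP), which takes spent SNARE complexes apart. Lowest among the effectors was *Golga2*, a Golgi matrix protein (-1.19), and among the calcium sensors *Syt8* (-0.23).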

How the data were processed

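Reads had been prepared as strand-specific libraries from total RNA of the 6 samples. Per the labels and the methods of the study, the authors aligned reads to GRCm39 with STAR and quantified transcripts with Kallisto; the labels also name fastp and a second build, mm10. The annotation release is not given in the sources used here. The deposited values behaved as TPM, each the mean over a gene's transcripts and rescaled by a sample-wide factor, whereas the authors called them normalized counts. In untreated replicate 3, 596 of 15607 values (3.82%) were a 6-digit number divided by a whole number such as 3, 7 or 11, against 22 after a random shift. Reads cannot be recovered, depth is unknown, and count tests were not run. Such averaging lowers a gene with many unused annotated transcripts, and values depend on the other RNA of a sample.

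The members and gene lists were chosen with earlier results of these data known. All 23049 genes above 0 in at least 1 sample of 38739 were tested with limma 3.58.1 in R 4.3.3 (trend, two-sided, no covariates) on log2(value + 1), so that differences of low genes are understated, and p values were adjusted over all of them (Benjamini-Hochberg). Groups came from the sample titles. Genes named were the called members, in each role the 2 with the highest mean and, at a mean of at least 1, the largest difference in each direction, and members fixed for granule and phagosome traffic, with a like rule for the other pathway genes, of which 1 called gene is not reported here. *Rab2a*, *Rab33b*, *Stx16*, *Rab3gap2* and other members outside that rule, and the ratios, were chosen with the values in view. A stretch of at least 150 bases at 95% identity (blastn 2.17.0) counted as near-identical, and 33 of 76 members had one in another gene, in 22 an overlapping gene of the table. The *Rab33b* stretch is a repeat found in 400 genes. Promoter windows came from GENCODE M39. The fit was tested on simulated data. Python 3.11.15 was also used.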

Additional observations from a re-analysis of the deposited data

How the results depend on the processing

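The counts given first are those of members called higher and lower (2 and 0), then those of other pathway genes (3 and 0). With an adjusted p under 0.05 alone they were 1 and 0, and 3 and 0. At a log2 fold change past 1 with an unadjusted p under 0.05 they were 11 and 3, and 14 and 9. A pseudocount of 5 gave 1 and 0, and 1 and 0, and one of 0.1 gave 3 and 0, and 4 and 2. Scaling to the protein-coding sum gave 1 and 0, and 2 and 2, as did protein-coding genes alone scaled to their sum and that scaling with the replicate block, both added after seeing the data. Centring on the median gave 1 and 0, and 3 and 0. Leaving out each replicate gave 1 to 6 members higher and 0 to 1 lower, and 3 to 5 other genes higher and 0 to 1 lower. The count of members higher was 1 without untreated replicate 1 and without each LPS replicate, and 6 without untreated replicate 2, and *Rab27a* was the member called lower without untreated replicate 1. *Rab11fip1* was called in 17 of 17 other fits. The cause of these differences was not tested. Among the uncalled members named here, the log2 difference changed sign on the protein-coding scale in all 3 such fits for *Vamp8* (0.13 to -0.35), *Vamp3* (0.30 to -0.14), *Stx7* (0.41 to -0.048) and *Rab23* (0.07 to -0.050). For *Rab23* it also did on centring (-0.0060) and quantile normalization (-0.0049). Leaving out replicates did so for 9 named members, with lowest and highest values of -0.10 and 0.31 for *Rab23*, -0.71 and 0.17 for *Rab3d*, -1.49 and 0.18 for *Rab7b*, -0.78 and 0.027 for *Stx17*, -0.32 and 0.80 for *Stx7*, -0.63 and 0.17 for *Unc13d*, -0.48 and 1.32 for *Vamp3*, -1.39 and 0.092 for *Vamp5* and -0.13 and 0.31 for *Vamp8*. The sources used here do not say whether the replicate numbers of the titles pair the samples. Deviations from group means correlated at 0.0935, 0.199 and 0.0835 between same-numbered samples. Each sample correlated best with its own number, which is a hint of pairing from the data only. With the replicate block the counts were again 2 and 0, and 3 and 0, with *Stx12* lost and *Rab20* gained, and the adjusted p of *Rab11fip1* was 0.0912 (limma). The precision rests on 3 samples a group, since the depth is unknown.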
